A study of Mus musculus with 6 samples.

Results

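Open chromatin was profiled by ATAC-seq, in which a transposase cuts accessible DNA, in adipocytes grown from the stromal vascular fraction of inguinal or brown adipose tissue. The regions described here were open in every culture from inguinal fat and were not called open in any culture from brown fat. They were chosen by peak presence alone. The peak intervals of all 6 libraries were merged where they overlapped or touched, and a merged region was kept if both beige and both white libraries had a peak in it and neither brown library did. Of 194496 merged regions, 2257 met this rule, which is 1.16%. Because presence and strength of the peaks decided membership, they are given as a description and without a test.

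The 6 libraries were 2 beige, 2 white and 2 brown. All cells came from wild type male C57BL/6J mice of 3 to 4 weeks and were collected after 7 days of differentiation. Beige and white cultures started from inguinal fat, a subcutaneous depot. According to the labels all media held insulin at 5 μg/ml and isobutyl methylxanthine at 0.5 mM. The study's methods give lower insulin doses than the labels, and these differ between the beige and white media. Dexamethasone was given at 5 μM in the beige and brown media and at 1 μM in the white medium. T3 at 1 nM and rosiglitazone at 1 μM were added to the beige and brown media and not to the white. Depot of origin and its dissection therefore separated the 4 inguinal from the 2 brown libraries and cannot be told apart, while the medium was shared between beige and brown. The study's methods do not describe the brown libraries, so any difference in their preparation or sequencing cannot be told apart from depot either. The labels do not say whether replicates came from separate animals or cultures. With 4 inguinal and 2 brown libraries the smallest two-sided p that an exact permutation could reach is 0.0667, so no test between the depots was made.

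Fat depots keep a record of their position in the body. Inguinal and brown precursors arise from different embryonic mesoderm, and transcription factors that pattern the limb, the body wall and the trunk, such as the Hox and T-box factors, remain differently used in cultured precursors from different depots. Adipocyte differentiation itself is driven by the C/EBP factors and PPARγ, which bind enhancers far from the genes they serve. GATA factors are known as brakes on the precursor, AP-1 factors bind many enhancers in stromal cells, and CTCF organises chromatin loops in every cell type. An ATAC-seq peak marks open DNA and does not show which of these proteins sits there.

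The sequences around the strongest summits show what these regions look like. Each is the reference sequence of GRCm38 (mm10), forward strand, 5′ to 3′, reaching 100 bp to each side of the summit. Capitals mark matches of the AP-1, TEAD, C/EBP, GATA, HOX-PBX or relaxed CTCF consensus, all described further on. The first set holds 6 of the 10 regions whose weakest inguinal peak ranked highest within its own list. Each is named by its nearest protein-coding gene.
Cyth4, chr15:78623524-78623724: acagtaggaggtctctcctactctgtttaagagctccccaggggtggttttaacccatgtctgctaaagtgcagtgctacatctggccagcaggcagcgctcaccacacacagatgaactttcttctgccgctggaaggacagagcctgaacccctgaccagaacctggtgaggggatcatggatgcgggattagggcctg
Rab11a, chr9:64691284-64691484: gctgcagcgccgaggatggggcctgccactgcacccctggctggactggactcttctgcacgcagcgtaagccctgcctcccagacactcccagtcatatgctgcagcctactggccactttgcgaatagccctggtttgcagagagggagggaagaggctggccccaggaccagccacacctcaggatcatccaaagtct
Keap1, chr9:21221630-21221830: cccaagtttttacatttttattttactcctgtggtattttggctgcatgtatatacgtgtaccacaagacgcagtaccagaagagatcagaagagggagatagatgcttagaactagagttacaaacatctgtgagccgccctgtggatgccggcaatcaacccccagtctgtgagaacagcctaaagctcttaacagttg
E2f3, chr13:29984859-29985059: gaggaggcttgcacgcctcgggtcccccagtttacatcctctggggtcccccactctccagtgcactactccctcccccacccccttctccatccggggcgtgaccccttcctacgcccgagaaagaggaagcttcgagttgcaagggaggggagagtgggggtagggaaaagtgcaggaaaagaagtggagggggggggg
Slc7a8, chr14:54786027-54786227: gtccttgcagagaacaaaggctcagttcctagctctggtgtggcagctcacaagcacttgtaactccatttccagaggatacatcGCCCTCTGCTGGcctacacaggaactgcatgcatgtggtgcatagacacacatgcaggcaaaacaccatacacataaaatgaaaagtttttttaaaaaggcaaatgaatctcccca
Rtn4, chr11:29694158-29694358: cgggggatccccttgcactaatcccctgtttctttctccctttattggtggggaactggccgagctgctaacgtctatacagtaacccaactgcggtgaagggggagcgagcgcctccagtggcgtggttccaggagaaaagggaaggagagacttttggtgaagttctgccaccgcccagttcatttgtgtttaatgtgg
Of these 6 windows, 1 held a relaxed CTCF match (Slc7a8) and 5 held none of the 6 marked families. Those at E2f3 and Rtn4 lay in promoters. A region whose nearest gene was a Hox gene follows, next to Hoxb9, and it held none of them either.
Hoxb9, chr11:96269686-96269886: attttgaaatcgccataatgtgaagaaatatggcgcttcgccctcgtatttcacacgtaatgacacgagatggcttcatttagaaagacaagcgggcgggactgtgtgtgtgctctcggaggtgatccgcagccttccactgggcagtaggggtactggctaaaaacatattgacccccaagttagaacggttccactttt
The last pair, chosen after the values had been seen, shows the strongest region without repeat sequence that held a C/EBP match (Trim2) and the strongest that held an AP-1 match (Pde11a). In the latter the AP-1 match lay next to a relaxed CTCF match.
Trim2, chr3:84199602-84199802: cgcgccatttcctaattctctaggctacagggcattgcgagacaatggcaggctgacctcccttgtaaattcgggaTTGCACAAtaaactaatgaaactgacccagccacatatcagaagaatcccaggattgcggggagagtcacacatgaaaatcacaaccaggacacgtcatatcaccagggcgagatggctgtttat
Pde11a, chr2:76254900-76255100: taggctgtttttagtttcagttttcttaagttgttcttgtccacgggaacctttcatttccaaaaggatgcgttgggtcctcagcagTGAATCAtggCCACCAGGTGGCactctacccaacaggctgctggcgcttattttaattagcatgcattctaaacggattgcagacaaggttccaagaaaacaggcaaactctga

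The strongest regions reached the upper part of each inguinal list and still lacked a brown peak. At Cyth4, which codes for a guanine nucleotide exchange factor of ARF proteins, the −log10 q of the peak was 22.9 and 38.7 in beige replicates 1 and 2 and 18.6 and 20.2 in white replicates 1 and 2. The region was intergenic, 26.6 kb downstream of the nearest start site, and the nearest brown summit lay 1194 bp away. Near Keap1, the sensor that holds back the oxidative stress factor NRF2, the values were 23.9, 27.6, 17.9 and 14.6 in the same order, at 17.1 kb from the start site. Near Slc7a8, an amino acid transporter, they were 20.7, 29.1, 19.4 and 14.3, with the summit 4.20 kb upstream of the start site. Each of these values stood over 10, where 1.3, a q value of 0.05, was enough to be listed.

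Others of the strongest 10 regions were of like strength. The region of Rab11a, a GTPase of recycling endosomes, lay in an intron of the neighbouring gene Megf11 and reached 21.3, 28.2, 21.3 and 14.9. Those of Hsd17b4, an enzyme of peroxisomal fatty acid oxidation, reached 18.5, 22.1, 16.2 and 14.2 in an intron, and those near Tnk2 reached 18, 38.7, 13.4 and 14.3. The 2 promoter regions of this set are described with the promoters. Beige replicate 2 had the highest value in each of the 10 regions, and this list was also the longest, with 127490 intervals against 118812 to 120473 in the other inguinal libraries and 109143 and 113861 in brown. The −log10 q depends on the depth of a library among other things, so values are not compared between libraries. The study lists fewer mapped reads for beige replicate 2 than for either white library. The source of its higher values was not tested.

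Most regions were weaker than these. Ranked within each list, the median region stood at the 32.9th and 36.4th percentile of beige replicates 1 and 2 and at the 40.6th and 41.3rd percentile of white replicates 1 and 2. Regions open in all 6 libraries stood at 74.3, 76.1, 74.3 and 73.8 in the same order. Taking the lowest of the 4 inguinal −log10 q values of each region, the median was 4.61 (quartiles 3.53 and 6.20), the weakest region had 1.32 and the strongest 18.6. All 4 peaks exceeded 5 in 949 regions (42.0%) and 10 in 78 regions. White peaks ranked higher than beige peaks, by the mean percentile of the 2 libraries of each, in 1412 regions (62.6%), against 44.5% of the regions open in all 6. A low rank can come from fewer cells with the region open or from less opening per cell, which cannot be told apart in bulk samples.

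**Figure D1:**
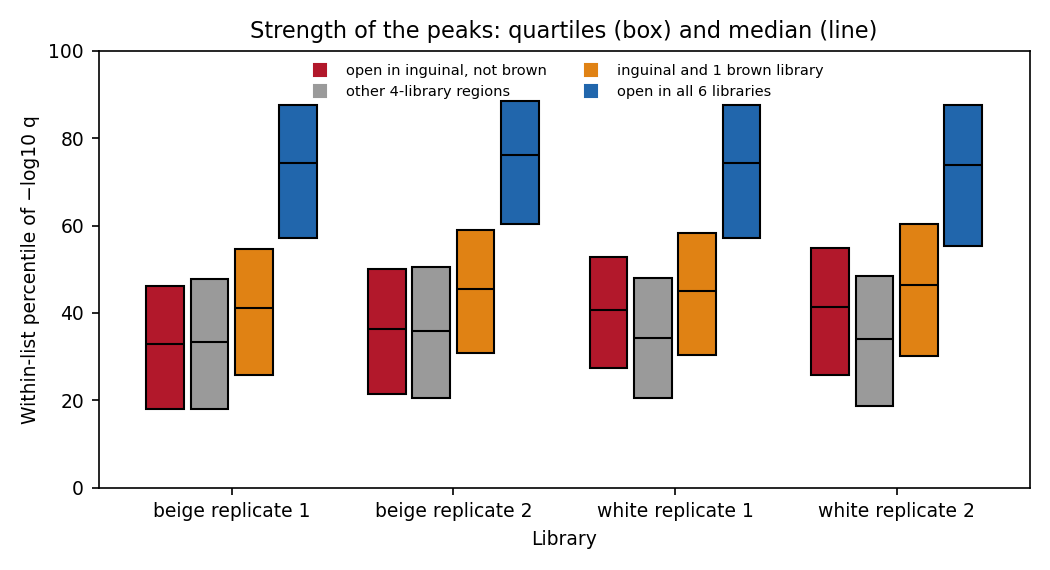
Within-list percentile of the −log10 q of a peak (vertical axis) in each inguinal library (horizontal axis) for 4 classes of merged regions; boxes span the quartiles and the line is the median over regions. The regions open in inguinal cultures and not brown, with medians from 32.9 to 41.3, sit far below those open in all 6 libraries and near the other regions with a peak in exactly 4 libraries.

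The absence of a brown peak went with weak inguinal peaks. Of the 66666 regions open in all 4 inguinal libraries, 58714 had a peak in both brown libraries, 4069 in brown replicate 1 only and 1626 in brown replicate 2 only, which left the 2257 without any (3.39%). That share was 15.6% (95% Clopper-Pearson interval 13.9 to 17.3) where the lowest inguinal −log10 q lay between 2 and 3, and 10.4% (9.55 to 11.4) between 4 and 5. It was 3.35% (2.99 to 3.74) between 7 and 10 and 0.747% (0.585 to 0.940) between 10 and 15. Between 20 and 50 it was 0 of 16489 regions, which allows up to 0.0224%. These intervals, like all others here, cover counting error only. Just outside the rule, the brown peak of a region with exactly 1 brown peak had a −log10 q of 7.01 in the median and of 1.33 at the lowest.

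**Figure D2:**
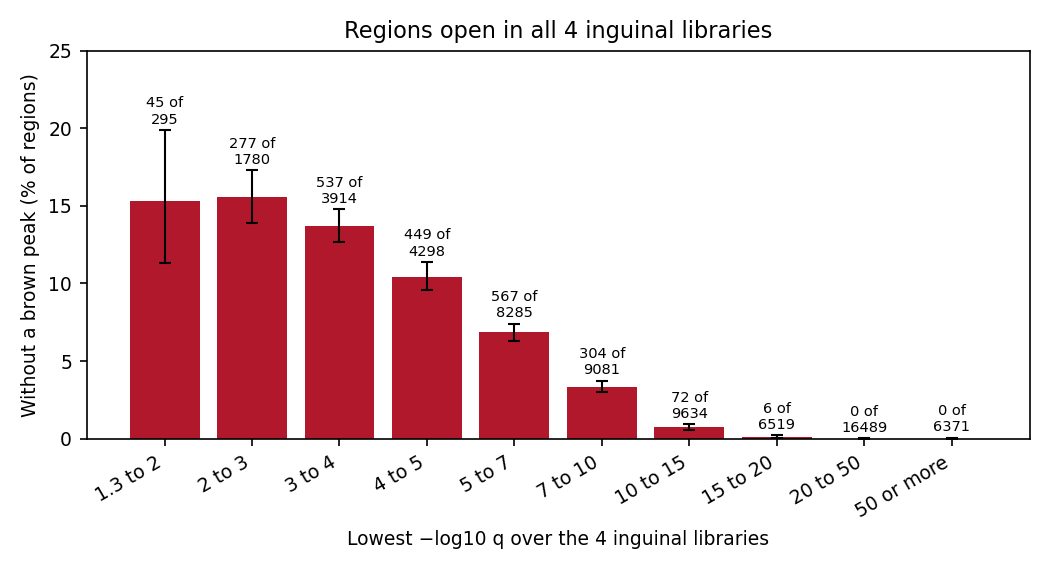
Share of the regions open in all 4 inguinal libraries that had no brown peak (bars, % of regions, with 95% Clopper-Pearson intervals) by the lowest −log10 q over the 4 libraries (horizontal axis). The share falls from 15.6% between 2 and 3 to 0.747% between 10 and 15, and no region at 20 or more lacked a brown peak.

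Other combinations of 4 libraries gave a scale for the count. A peak in exactly 4 libraries was found in 13011 regions, and the 15 possible combinations held between 219 and 2438 of them, with a median of 516. The inguinal combination had rank 2, after the one of both beige and both brown libraries, which shared a medium. In the reverse direction, 1707 regions (0.878% of all) had a peak in both brown libraries alone. A further 5426 regions had a peak in 3 of the 4 inguinal libraries and in no brown library. With 1 library left out the count was higher, since fewer libraries then have to meet the rule. It was 6368 without brown replicate 1, 4455 without white replicate 1 and 3896 without brown replicate 2. Without beige replicate 1, white replicate 2 or beige replicate 2 it was 3754, 3495 and 3072.

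**Figure D3:**
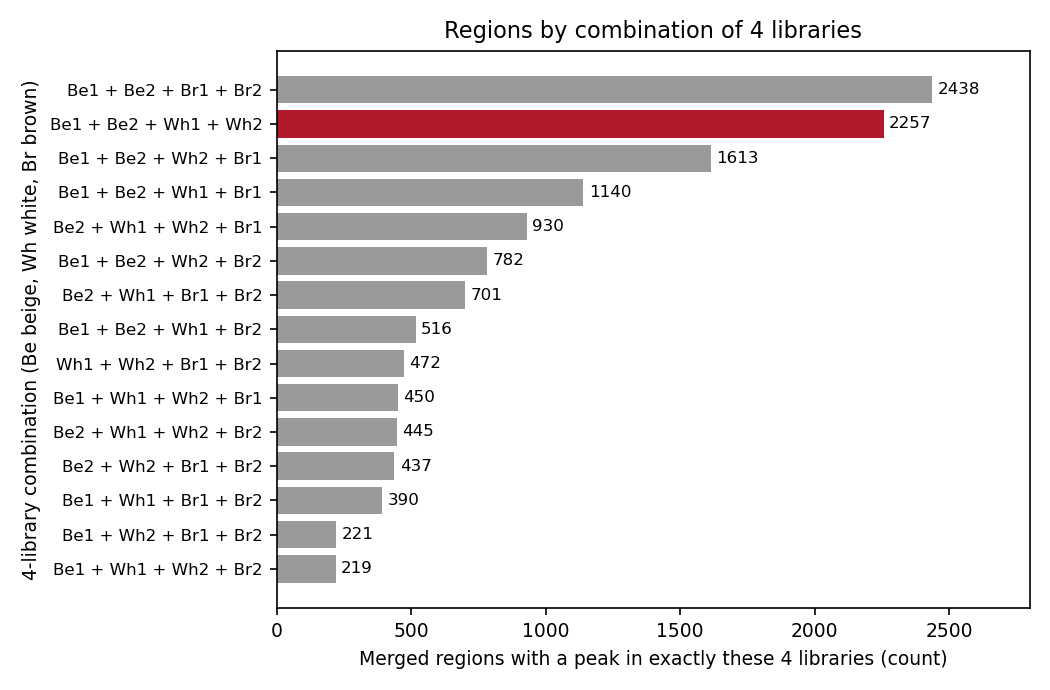
Number of merged regions (horizontal axis, count) with a peak in exactly the 4 libraries named on the vertical axis, where Be, Wh and Br stand for beige, white and brown with the replicate number. The inguinal combination (dark red, 2257) follows the beige and brown one (2438), and the lowest combination holds 219.

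The regions were narrow and lay mostly away from promoters. Their median width was 300 bp (quartiles 243 and 409, range 152 to 1166), against 588 bp for regions open in all 6 libraries, 256 bp for those open in brown alone and 306 bp for the other regions with exactly 4 peaks. The strongest summit lay within 1 kb of a protein-coding start site in 183 regions, or 8.11% (7.01 to 9.31). This share was 24.3% (23.9 to 24.6) among regions open in all 6, 3.93% (3.05 to 4.96) among those open in brown alone and 6.91% (6.44 to 7.40) among the other regions with exactly 4 peaks. Introns held 980 regions (43.4%), intergenic sequence 1014 (44.9%) and exons 80 (3.54%). The median distance to the nearest start site was 32075 bp, and 496 regions (22.0%) lay over 100 kb from one. The GC content of the windows was 48.7% ± 6.83 (SD over 2257 regions), against 54.1% ± 9.68 for regions open in all 6.

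Many of the regions stood beside chromatin that was open in brown cells. The nearest brown summit lay a median of 3559 bp away, within 1 kb for 580 regions (25.7%) and beyond 10 kb for 513 (22.7%). The nearest region open in all 6 libraries was a median of 7854 bp away. When a region with any brown interval within 1 kb was dropped, 1543 regions remained and the promoter share fell to 1.94% (30 regions), so most of the promoter regions stood next to a brown interval.

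At promoters, 44 of the 183 summits lay within 200 bp of the start site and 64 lay upstream of it. For 142 of them the same gene had another promoter region that was open in all 6 libraries, which leaves 41 for which it had none. In 25 cases that gene was given no other merged region with its strongest summit within 1 kb of a start site. Since each region was given to 1 gene, a promoter shared by neighbouring genes counts for only one of them.

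The strongest promoter region stood 568 bp upstream of a start site inside E2f3, a cell cycle factor, with −log10 q of 19.9 and 24.5 in beige and 16.6 and 14.6 in white. At Rtn4, which codes for the Nogo proteins of the endoplasmic reticulum, it stood 484 bp downstream with 18.5, 27.8, 19.8 and 18.6. Sin3a, the scaffold of a histone deacetylase complex, had values of 15.3, 29.0, 14.4 and 25.5 at 38 bp downstream. Each of these 3 regions cleared 10 in all 4 libraries. At E2f3, Rtn4 and Sin3a a brown summit stood within 1 kb, at 333, 466 and 756 bp.

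Values are given for 5 more of the 183 promoter regions. Vcan, which codes for the matrix proteoglycan versican, had a region 936 bp downstream of a start site with values of 12.2, 14.2, 10.1 and 8.93. Bmi1, a subunit of Polycomb repressive complex 1, had one at 818 bp with 9.89, 14.8, 10.8 and 14.7. The nearest brown summits lay 332 bp (Vcan) and 619 bp (Bmi1) away. Among genes given no other promoter region, Alox12e, an epidermal lipoxygenase, had values of 16.6, 22.5, 13.6 and 9.91. Its nearest brown summit lay 12852 bp away. Tro had 7.76, 8.32, 6.48 and 6.23 with the nearest brown summit 63393 bp away. Tshz1, a zinc finger factor of trunk patterning, had 10.7, 10.4, 7.25 and 9.81 at 10 bp upstream of its start site. Its nearest brown summit lay 1121 bp away. These genes were named after their values had been seen.

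The regions were spread over the genome with few groups. Of the merged regions on a chromosome, between 0.975% (0.819 to 1.15, chromosome 1) and 1.53% (1.26 to 1.85, chromosome 16) belonged to the set on the autosomes, 1.37% (1.00 to 1.81) on X and 0 of 46 on Y. An immediate neighbour in the list of merged regions also belonged to the set for 84 regions (3.72%, 2.98 to 4.59). Counted over both neighbours, 1.86% of the places were taken by a region of the set, against 1.16% of all merged regions. Regions open in brown alone took 1.70% of their own neighbour places, against 0.878% of all. Those open in both beige and both brown libraries and not in white took 2.71%, against 1.25%, so the set is not alone in this. The share of 3.72% was 8.37% without brown replicate 1, 6.11% without white replicate 1 and 2.12% with equally long lists. Allowing gaps of 20 kb, there were 90 pairs and no group of 3.

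With gaps of 50 kb, 19 groups of 3 formed and none was larger. The tightest held 3 regions in 25 kb near Xirp2, 3 in 32.5 kb near Csf1, the growth factor of macrophages, and 3 in 33.3 kb in Fbxo11, a subunit of a ubiquitin ligase. At Fbxo11 the span held 5 merged regions and none of them was open in all 6 libraries. Another group covered 82.9 kb around Aspn, Omd and Ogn, neighbouring genes of small leucine-rich matrix proteoglycans. A group of 38.4 kb lay inside Ebf2, a factor of brown precursors. These groups were sought after the absence of groups at 20 kb was known.

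The nearest protein-coding genes numbered 1937, or 8.86% of 21851. A single region fell to 1668 of them, 226 had 2, 35 had 3 and 8 had 4. Dsel, Ank3, Pcdh9, Frmd4b, Prickle1, Sorcs3, Flrt2 and Trib2 were the genes with 4. Frmd4b had 50 merged regions in all, of which 4 (8.00%) belonged to the set, while Pcdh9, a protocadherin of cell adhesion, had 104, of which 4 (3.85%) did. In the 7 genes with 3 regions that the naming rule reached, the share was 3.75% (Ets1) to 15% (Xirp2, 3 of 20). All of these genes were named for having the most regions of the set. Shares above the 1.16% of all merged regions therefore follow from that choice. The reading by nearest gene is only a label of position, and 84 regions (3.72%) received another gene from the full annotation.

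Ank3, which codes for the membrane scaffold ankyrin G, carried its regions around its several start sites. Inside an Ank3 intron, 1.08 kb upstream of an inner start site, the −log10 q was 9.22 and 11.8 in beige and 10.6 and 12.8 in white. Another intronic region of Ank3 had 11.9, 30.1, 6.20 and 9.24. At Dsel, an enzyme of dermatan sulfate, the strongest of 4 regions lay 524 kb upstream and had 17.8, 19.3, 17.4 and 10.8. Prickle1, a planar cell polarity protein, had all 4 regions upstream of its start site, from 90.9 to 321 kb, and the strongest had 7.52, 24.6, 5.98 and 7.60.

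Ets1, the transcription factor that gave the study its subject, was among the genes with 3 regions. Of its 80 merged regions, 28 were open in all 6 libraries, beside 58714 of all 194496. None was open in brown alone, beside 0.878% of all, a share too low for 80 regions to show a lack. One of the 3 regions of the set stood 489 bp downstream of an inner start site of Ets1. Its −log10 q was 8.78 and 8.06 in beige and 10.3 and 11.9 in white. A second in an intron had 7.73, 10.7, 7.08 and 5.74. The third, 291 kb downstream, had 9.02, 10.7, 9.10 and 10.1. The nearest brown summits lay 855, 1517 and 653 bp away.

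Genes that pattern the limb, the body wall and the white depots were met often, but they also own many open regions. Of the 25 genes of this list, 14 were the nearest gene of at least 1 region (56.0%), beside 8.86% of all protein-coding genes. Counted over open regions, 18 of the 967 merged regions nearest to these genes belonged to the set, which is 1.86% (1.11 to 2.93), beside 1.16% of all merged regions. Open in brown alone were 11 of the 967 (1.14%, 0.569 to 2.03), beside 0.878% of all. The 2 intervals overlap, and each spans the share of all merged regions given beside it. Only the region at En1 lay in a promoter.

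Among the T-box genes, which set limb and trunk identity, 6 regions fell to 5 genes. Tbx15, a marker of subcutaneous fat, had a region in its own gene, 5.97 kb upstream of an inner start site, with −log10 q of 8.59 and 5.15 in beige and 6.62 and 6.45 in white. Tbx3 had one 306 kb upstream with 7.99, 14.8, 9.90 and 11.3, all of middle rank. Tbx5, a forelimb gene, had a wide region of 852 bp at 12.6 kb upstream with 4.78, 8.06, 5.58 and 4.99. Tbx4, its hindlimb counterpart, had one with 2.05, 6.41, 6.68 and 5.88. In Tbx4 the peak of beige replicate 1 stood only at the 1.10th percentile of its list. Tbx18 had 2, with 3.28, 7.18, 4.37 and 13.7 at 44.2 kb downstream and 3.28, 4.94, 4.43 and 4.24 at 190 kb upstream.

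Homeobox genes of the list held most of the other regions. The strongest stood 82.1 kb from the start site of Lmx1b, which sets the dorsal side of the limb, and had 24.9, 55.5, 11.4 and 14.5 with the nearest brown summit 2730 bp away. A second, in an intron of Lmx1b, had 9.93, 13.4, 5.47 and 3.82. By within-list percentile both beige peaks ranked above both white peaks in each of these regions. En1, the ventral limb gene, had a region 587 bp downstream of its start site with 6.03, 8.39, 5.07 and 4.01 and a brown summit 728 bp away. At Prrx1, a marker of limb mesenchyme and of white fat precursors, the values were 11.2, 7.98, 4.43 and 13.3, and at Meis1, a partner of Hox proteins, they were 8.19, 20.0, 7.99 and 7.32 in an intron.

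Emx2, a factor of limb girdle and urogenital development, had one at 9.35 kb downstream with 6.39, 14.8, 12.2 and 11.7. At Isl1 the values were 6.33, 10.7, 3.8 and 7.72. For the nuclear receptor Nr2f1, 2 regions lay side by side 505 kb upstream, the first with 15.3, 14.4, 2.63 and 8.37 and the second with 5.09, 12.0, 15.5 and 14. By within-list percentile the first ranked higher in both beige libraries and the second in both white ones. Hand2 had the second lowest rank of the list, with 3.96, 12.3, 2.10 and 4.87.

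**Figure D4:**
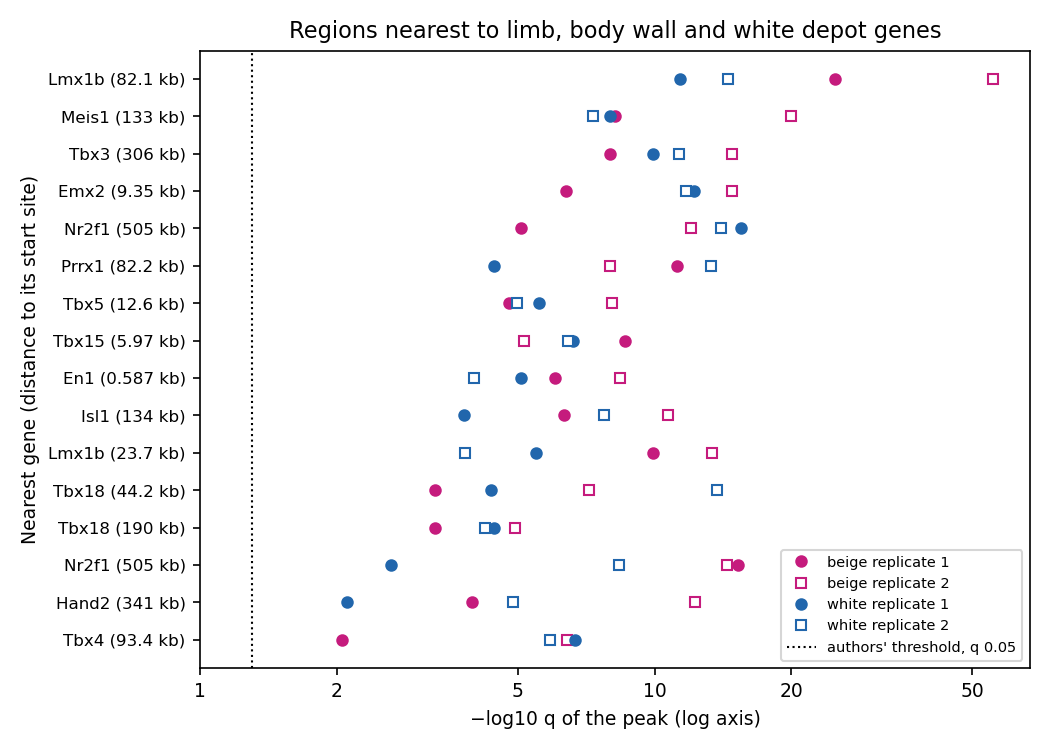
−log10 q of the peak (horizontal log axis) in each inguinal library for 16 of the 18 regions nearest to limb, body wall and white depot patterning genes, named on the vertical axis with the distance to the start site and ordered by the lowest within-list percentile. No region had a brown peak, the dotted line is the authors' threshold, and the region of Lmx1b at 82.1 kb stands highest, up to 55.5 in beige replicate 2.

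Hox genes, which set position along the body axis, had regions of the set at a share close to that of all merged regions. Of 39 Hox genes, 30 to 33 had a promoter peak in each beige and white library and 33 and 28 in brown replicates 1 and 2. Of the 210 merged regions nearest to a Hox gene, 2 belonged to the set (0.952%, 0.116 to 3.40), beside 1.16% of all merged regions, and 4 were open in brown alone (1.90%, 0.521 to 4.80), beside 0.878% of all. The region 1.67 kb upstream of Hoxb9 had −log10 q of 6.96, 3.49, 6.93 and 12.0 with a brown summit 294 bp away. It ranked low in beige replicate 2, at the 5.58th percentile.

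Genes of the brown depot and of heat production had regions of the set at shares close to the 1.16% of all merged regions. Ebf2, which marks brown precursors and opens brown enhancers, had 3 intronic regions, with 7.91, 7.15, 4.56 and 4.24 in the one nearest to the start site, at 72.2 kb. Lhx8, a homeobox gene of the brown depot, had one at 123 kb upstream with 9.42, 8.57, 3.97 and 4.94. The list of 15 brown depot genes thus held 4 of 357 merged regions (1.12%, 0.306 to 2.84), and 7 (1.96%, 0.792 to 4.00) were open in brown alone, beside 0.878% of all. Of 15 thermogenic genes, Ppargc1b, the relative of the mitochondrial coactivator PGC-1α, had a promoter region 461 bp downstream with 9.06, 11.9, 10.1 and 22.4. A second region of Ppargc1b in an intron had 5.30, 11.2, 6.16 and 2.93. Dio2, the deiodinase that activates thyroid hormone, had one 178 kb upstream with 5.94, 6.18, 3.20 and 3.46. The thermogenic list held 3 of 291 regions of the set (1.03%, 0.213 to 2.98) and 8 open in brown alone (2.75%, 1.19 to 5.34).

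No region of the set fell to the 15 adipocyte genes, such as Adipoq, Fabp4, Lpl and Cebpa. Their 217 merged regions held 0 of the set, which allows up to 1.69%, beside 1.16% of all regions. All 10 adipocyte markers had a promoter peak in each of the 6 libraries, while promoter peaks were also found at many markers of other cell types. Per library they stood at 5 or 6 of 10 Schwann cell markers, 4 to 6 of 10 endothelial, 4 to 6 of 10 epithelial, 2 to 4 of 10 mesothelial, 2 to 4 of 10 skeletal muscle and 2 or 3 of 10 macrophage markers, so an open promoter alone does not separate adipocytes from these. None of the 79 regions nearest to macrophage markers belonged to the set, which allows up to 4.56%. Mesothelial and skeletal muscle markers had none either, in 72 and 83 merged regions, which allows up to 4.99% and 4.35%. Endothelial markers (Cdh5, Egfl7) had 2 of 186 (1.08%, 0.13 to 3.83). Epithelial markers (Trp63, Elf5) had 2 of 106 (1.89%, 0.229 to 6.65) and Schwann cell markers (Mbp, Ngfr) 2 of 146 (1.37%, 0.166 to 4.86). Each of these genes had 1 region, with a −log10 q of 16.2 at the highest. All of these intervals span the 1.16% of all regions, so the counts do not separate the cell types. The part of such cells in the set was not tested.

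Precursor genes held 5 of 365 merged regions (1.37%, 0.446 to 3.17), close to the 1.16% of all. Sema3c, a semaphorin of fibroblast precursors, had a promoter region 440 bp upstream with −log10 q of 13.8, 21.1, 8.22 and 11.5 and a brown summit 404 bp away. Col1a1, the fibrillar collagen, had 2, the intronic one with 5.48, 11.1, 10.1 and 6.07. Mfap5 and Fbn1, both of the microfibrils, had 7.33, 11.5, 3.29 and 2.51 and 3.28, 3.14, 4.38 and 4.84. The contractile list held 1 of 117 (0.855%, 0.0216 to 4.67), an interval that also spans 1.16%, near Myocd, the coactivator of smooth muscle genes, with 14.4, 9.98, 7.32 and 5.46.

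Secreted ligands and their antagonists held 9 of 765 (1.18%, 0.539 to 2.22), close to the 1.16% of all regions. The strongest stood 28.4 kb upstream of Fgf7, a growth factor for epithelia, inside an intron of Fam227b, with 34.8, 21, 8.73 and 13.3 and the nearest brown summit 25019 bp away. Near Inhba, the activin A subunit, the values were 11.8, 11.5, 12.0 and 22.6. Wnt5b, a noncanonical Wnt ligand, had 9.46, 12.3, 20.2 and 7.12, and Wnt11 had 3.90, 16.1, 12.0 and 6.74. Fgf10, a ligand of adipose precursors, had 2 intronic regions, the nearer at 1.26 kb from the start site with 9.73, 9.45, 6.01 and 7.90. Dkk2 had 11.2, 14.1, 5.09 and 11.6, and Sfrp1 and Bmp2, with 5.40, 6.98, 11.5 and 3.56 and 4.27, 7.39, 4.45 and 4.40, completed the list.

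The sequence under the summits was not used by the rule. Consensus matches were sought on either strand, up to 100 bp to each side of the strongest summit, and no consensus of a family contains one of another, except that most full CTCF matches also hold the relaxed one. AP-1 (TGANTCA) was found in 17.7% (16.2 to 19.4) of the 2257 windows, against 21.2% (21 to 21.3) of all merged regions, 26.4% (26.1 to 26.8) of those open in all 6 and 30.1% (27.9 to 32.3) of those open in brown alone. TEAD (GGAATG) was found in 13.1% (11.7 to 14.5), against 14.1% of all regions and 18.9% (17 to 20.8) of brown alone. EBF (CCCNNGGGA) was found in 4.87% (4.02 to 5.84), against 5.76% of all regions and 7.21% (6.02 to 8.54) of brown alone. All 3 shares lay below those of the regions open in brown alone, and the intervals of the pairs did not overlap. Without brown replicate 1 the AP-1 share was 23.4% (22.4 to 24.5), above the 21.2% of all merged regions in the 6 libraries.

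C/EBP and GATA matches were more frequent than among all merged regions, regions open in all 6 and regions open in brown alone. The windows of the set also had a lower mean GC content, 48.7%, against 50.9%, 54.1% and 50.1% in the same order. The part of base composition in the motif shares was not tested. C/EBP (TTGCGCAA, TTGTGCAA, TTGCACAA, TTGCATCA or TTGTGTAA) was found in 7.62% (6.56 to 8.79), against 4.27% (4.18 to 4.36) of all regions, 4.66% (4.50 to 4.84) of those open in all 6 and 3.05% (2.28 to 3.98) of brown alone. The GATA consensus, read as AGATAA, was found in 11.3% (10.1 to 12.7), against 8.04% (7.92 to 8.16), 6.67% (6.47 to 6.88) and 7.56% (6.35 to 8.91). HOX-PBX (TGATTTAT, TGATTGAT or TGATTAAT) was found in 2.61% (2.00 to 3.36), against 1.63% (1.58 to 1.69), 1.36% (1.27 to 1.46) and 2.05% (1.43 to 2.84), the last of which it overlaps. Regions with all 4 inguinal peaks and 1 brown peak lay between, at 5.83% (5.24 to 6.47) for C/EBP and 10.6% (9.85 to 11.5) for GATA, the latter overlapping. ETS (CCGGAAGT, CAGGAAGT, CCGGAAGC or CAGGAAGC), the family of Ets1, was found in 6.60% (5.61 to 7.71), against 6.80% of all regions. No window held the full PPAR DR1 repeat, which allows up to 0.163%, and all merged regions held it in 0.0571%. More than 1 kb from start sites the shares of the set were close to these, with 18.9% for AP-1, 8.20% for C/EBP and 11.7% for GATA. Regions open in all 6 held 33.1%, 5.71% and 8.15% there, and all merged regions 23.1%, 4.62% and 8.64%. In 1255 windows (55.6%) there was no match of AP-1, TEAD, C/EBP, GATA or relaxed CTCF.

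Of the other families searched, KLF/SP and full CTCF had intervals, over all windows, that excluded the share of all merged regions. More than 1 kb from start sites the KLF/SP interval spanned it, at 2.36% (1.75 to 3.11) against 2.91%. KLF/SP (CCCCGCCCC or CCCCACCCC) was found in 3.01% (2.35 to 3.8) of the windows, against 4.30% (4.21 to 4.39) of all merged regions, 7.35% (7.14 to 7.57) of those open in all 6 and 2.81% (2.08 to 3.71) of those open in brown alone. The E-box CAGCTG was found in 15.8% against 15.4% of all regions, the glucocorticoid receptor repeat ACANNNTGT in 7.22% against 6.96%, and SOX (ACAATGG or ACAAAGG) in 7.04% against 6.52%. The homeobox core TAATTA was found in 3.01% against 2.69%, FOX (TGTTTAC) in 2.84% against 2.36%, RUNX (TGTGGTTT or TGTGGTTA) in 2.66% against 2.92%, SPI1 (GAGGAAGT, added after values had been seen) in 1.99% against 1.82% and STAT (TTCCNGGAA) in 0.975% against 0.928%. In each of these 8 families the interval of the set spanned the share of all regions. The full CTCF consensus was found in 0.886% (0.542 to 1.37), against 0.459% (0.430 to 0.490) of all merged regions, 0.843% (0.771 to 0.920) of those open in all 6 and 0 of those open in brown alone, which allows up to 0.216%. MEF2, TWIST, NFI, NRF1 and SRF were each found in less than 1% of the windows. RUNX was found in 4.69% (3.73 to 5.80) of the regions open in brown alone, an interval above that of the set (2.03 to 3.41).

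These shares depend on which libraries a peak is asked of, as the 14 other combinations of 4 libraries show. The AP-1 share of these combinations ran from 11.4% to 45.1%, with a median of 28.8%, and 2 of the 14 lay below the 17.7% of the inguinal one. Relaxed CTCF, a shortened CTCF core with alternative letters that was added after values had been seen, ran from 0 to 12.8% and was found in 4.79% (3.94 to 5.75) of the inguinal windows, against 2.97% (2.89 to 3.05) of all merged regions, 5.12% (4.94 to 5.30) of those open in all 6 and 0.351% (0.129 to 0.763) of those open in brown alone. GATA ran from 5.04% to 10.4%, below the 11.3% of the inguinal combination in all 14. The 10.4% lies inside the interval of that share (10.1 to 12.7). C/EBP ran from 3.6% to 8.31%, and 13 of the 14 lay below the 7.62%. For both beige and both brown libraries it was 6.69% (5.73 to 7.75), which overlaps the interval of the set (6.56 to 8.79). HOX-PBX ran from 0.457% to 2.71%, again with 13 below the 2.61%. The combinations share libraries and regions of 1 combination share their peaks, so no test was made. The 4 highest AP-1 shares belonged to combinations with white replicate 1 and brown replicate 1 and the highest relaxed CTCF share to one without either, a difference between libraries whose part in the motif shares was not tested.

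**Figure D5:**
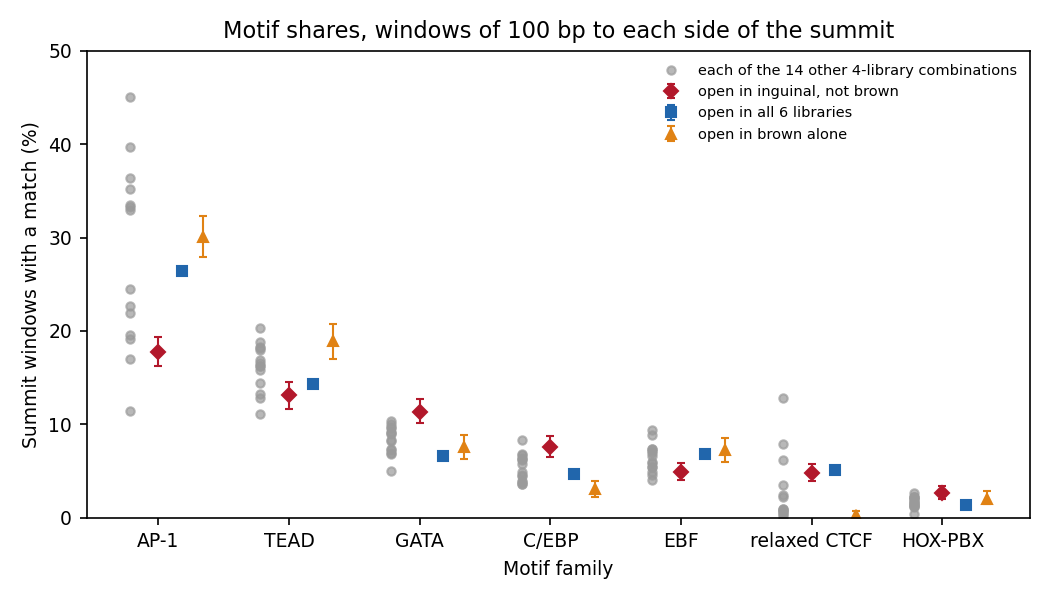
Share of summit windows with a consensus match (vertical axis, %) for 7 motif families. Diamonds with 95% Clopper-Pearson intervals are the regions open in inguinal cultures and not brown, squares those open in all 6 libraries, triangles those open in brown alone, and grey dots the 14 other combinations of 4 libraries; for GATA the diamond, 11.3%, stands above every dot.

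Strong and weak regions differed most in their CTCF matches. Sorted into 3 groups of equal size by their lowest within-list percentile, the regions held a relaxed CTCF match in 1.73% (0.924 to 2.94) of the weakest 752, 3.86% (2.60 to 5.49) of the middle 752 and 8.76% (6.84 to 11) of the strongest 753. AP-1 stood at 18.9%, 20.1% and 14.2% (11.8 to 16.9), C/EBP at 6.78%, 8.64% and 7.44% and GATA at 11.4%, 12.4% and 10.2%. The intervals of the 3 groups overlapped for C/EBP and GATA. The median width was 324 bp in the weakest group and 262 bp in the strongest. C/EBP and GATA matches shared a window in 21 regions, C/EBP and AP-1 in 22 and GATA and AP-1 in 53.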

How the data were processed

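The authors aligned the reads of each library to mm10 with BWA and called peaks per library with MACS2, keeping those at a q value under 0.05. Trimming with Trimmomatic is given in the study's methods for its libraries, and for brown, which these methods do not describe, the tools are known from the labels' processing notes alone and the threshold from the lowest −log10 q of the lists (1.30). The deposited lists give for each summit the fold enrichment, a ratio of pileup to the library's own local background, and the −log10 of its q value. Neither is normalized between libraries, so ranks within a list were used to order peaks. The lists hold no read counts, and the depth of the libraries did not enter any value here.

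Several summits can share an interval, and each interval entered 1 time, with its top −log10 q. Intervals of all 6 libraries were merged where they overlapped or touched, which was checked against bedtools 2.31.1 on simulated data, as was the motif search on windows with planted matches. The strongest summit of a region was the one with the highest within-list percentile of −log10 q. Summits within 1 kb of a protein-coding start site (GENCODE M21, basic transcripts) counted as promoter, and other regions were assigned by their summit to exon, intron or intergenic sequence. The nearest such start site gave the gene. Windows reaching 100 bp to each side of summits of GRCm38.p6 were searched for 22 motif families and 2 added later. Analyses ran in Python 3.11.15 with numpy 2.4.6, pandas 2.3.3, scipy 1.17.1, pysam 0.24.0 and matplotlib 3.10.9.

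No result comes from a test. Shares carry 95% Clopper-Pearson intervals for counting error, and regions of the same libraries are not replicates. The named genes were the 15 genes nearest to most regions, the genes of the strongest 10 regions and every gene of the fixed lists (Hox, patterning, brown depot, thermogenic, adipocyte, progenitor, contractile, ligand and cell type marker genes) nearest to a region; a further part of the rule, for groups of 3 or more, selected none at 20 kb. Members and lists were chosen with earlier results of these data known. The comparison with other 4-library combinations, the relaxed CTCF and SPI1 consensus, the strength groups, the promoter genes, the groups at 50 kb and the sequences at Trim2 and Pde11a were chosen after values had been seen. Alternatives tried were other q thresholds, equally long lists, a distance of 1 kb to brown intervals, reciprocal overlap, each library left out, and other promoter, window and gap sizes. A few regions that the rule selects are not reported here.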

Additional observations from a re-analysis of the deposited data

How the results depend on the processing

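No paired analysis was possible because shares and counts were given without tests, and the labels do not say that libraries of equal replicate number share an animal or culture. Stricter thresholds gave 2267 regions (q under 0.01) and 1816 (q under 1e-05), and there were 1698 with equally long lists (the strongest 109143 intervals of each), 1543 without a brown interval within 1 kb and 1690 when single intervals of beige replicate 1 had to overlap those of the other inguinal libraries by a share of 0.5 of both lengths (reciprocal overlap), all within 1.5 times of 2257. With 1 library left out it ran from 3072 to 6368, since fewer libraries then have to meet the rule. The promoter share of 8.11% (183 regions) became 1.94% (30 regions) without a brown interval within 1 kb. It was 14.2% with promoters of 3 kb and ran from 8.18% to 10.2% with 1 library left out. The share next to another such region, 3.72%, was 2.97% at a q value under 1e-05, 2.12% with equally long lists and 4.91% by reciprocal overlap, and ran from 5.08% to 8.37% with 1 library left out. The AP-1 share of 17.7% was 19.8% without a brown interval within 1 kb, 14.1% and 24.1% with windows of 50 and 250 bp to each side, and ran from 14.4% (without white replicate 1) to 23.4% (without brown replicate 1); the value without brown replicate 1 lies above the 21.2% of all merged regions, and the others with the window of 100 bp lie below it. The median width of 300 bp was 321 bp at a q value under 1e-05, 290 bp with equally long lists and 207 bp by reciprocal overlap, which measures intervals of 1 library, and ran from 254 to 320 bp with 1 library left out. Groups of 3 or more numbered 0 at gaps of 10 and 20 kb and 19 at 50 kb. The GATA share of 11.3% ran from 10.7% to 12.1%, the C/EBP share of 7.62% from 5.79% (without white replicate 1) to 8.10%, and the relaxed CTCF share of 4.79% from 3.49%, where beige replicate 1 was left out, to 6.98%, where white replicate 1 was, over alternatives added after the values had been seen. Where no cause is named for a change, the cause was not tested. With no read counts in the lists, a missing brown peak is a region under the authors' threshold and not one shown to be closed.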
